A study of Mus musculus with 10 samples.

Results

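The genes described here are 10 enzymes that make or recycle purine nucleotides: *Gart*, *Ppat*, *Pfas*, *Paics*, *Adsl* and *Atic* of de novo synthesis, *Hprt*, *Aprt* and *Adk* of salvage, and *Impdh2* of guanine nucleotide synthesis. They were chosen by symbol, through the Ensembl gene IDs of the count table and the GRCm38 annotation, and make up 10 of the 43629 genes in that table. All 10 had enough reads to be tested, with raw counts between 308 and 5416 per library. *Gart* is the only one of them inside the segment that is duplicated in Dp1Tyb mice. The other 9 lie on other chromosomes and are present in the normal number of copies.

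RNA was sequenced from the whole hippocampus of 10 mice, with 1 library per mouse, 5 wild-type (WT) and 5 Dp1Tyb. Dp1Tyb mice, listed with the genotype Dp(16Lipi-Zbtb21)1TybEmcf, model Down syndrome. They carry on 1 chromosome 16 a tandem duplication from *Lipi* to *Zbtb21*, 22.4 Mb that match a large part of human chromosome 21, so that the genes in between are present in 3 copies. Both groups were labelled with the strain background C57BL/6J.129P2 and an age of 18 weeks. Per the study they were male littermates, slightly older than that label, after repeated backcrossing to C57BL/6J. No group received a treatment. The comparison asks which transcripts differ in level between the 2 genotypes. The duplication is 1 engineered allele, and the tissue was not sorted, so a gene's level adds up all cell types of the hippocampus. The deposited counts summed to between 18227684 and 43692270 per library. The tissue label was checked against 7 genes of hippocampal neurons (*Snap25*, *Rbfox3*, *Slc17a7*, *Neurod6*, *Prox1*, *Wfs1* and *Gad1*), all of which were detected. Their summed level ranged from 3977 to 4203 counts per 1000000 (CPM, scaled by library size) in WT and from 4238 to 4523 CPM in Dp1Tyb libraries. The 7 genes did not all move the same way, with log2 fold changes above 0 for 5 and below 0 for 2. At an unadjusted edgeR p under 0.05, 3 were higher and 1 lower, against 14.4% of all tested genes. At an adjusted p under 0.05 there were 0, against 0.87% higher and 0.238% lower of all tested genes. The choroid plexus, an epithelium next to the hippocampus, varied most between libraries. Its 5 markers (*Ttr*, *Kl*, *Folr1*, *Kcnj13*, *Otx2*) summed to between 406.7 and 5205 CPM in WT and between 33.28 and 3734 CPM in Dp1Tyb libraries, and were near their minimum in Dp1Tyb replicates 1 and 4. A low level was also seen in WT replicate 2, at 406.7 CPM, where the other WT libraries had 2769 CPM or more. With the choroid plexus level as a covariate, the log2 fold change of *Gart* was 0.59 (edgeR adjusted p = 4.32e-05) and that of *Hprt* 0.15 (edgeR adjusted p = 0.215). The part of the neuronal markers in the levels described below was not tested.

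Purine nucleotides are built in the cell by a chain of reactions that starts from phosphoribosyl pyrophosphate (PRPP) and ends at inosine monophosphate (IMP). PPAT makes the committed step, GART is a trifunctional protein that acts at several later steps, and PFAS, PAICS, ADSL and ATIC carry out the rest. The enzymes can gather in clusters called purinosomes when purines are short. Most purines in the adult brain are recycled rather than newly made. HPRT joins PRPP to hypoxanthine and guanine, APRT does the same for adenine, and ADK phosphorylates adenosine, a neuromodulator whose level it limits. Loss of HPRT in people causes Lesch-Nyhan disease, with severe neurological signs.

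The sequences just before 4 of the transcription starts are shown. *Gart*, *Ppat* and *Paics* belong to 2 pairs of genes that start close together on opposite strands. *Gart* and the neighbouring gene *Son* start 553 bases apart on opposite strands, and both are inside the duplication. *Ppat* and *Paics* are the other pair, with annotated 5′ ends that overlap by 272 bases on chromosome 5. The bases shown for each thus lie inside the other gene, and both enzymes belong to the same pathway. *Hprt* is shown as the salvage gene whose level is described most closely below. Each line gives the 150 bases before the RefSeq start on GRCm38.p6, 5′ to 3′ on the strand of the gene. They are chr16:91646973-91647122 on the minus strand for *Gart*, chr5:76951579-76951728 on the minus strand for *Ppat*, chr5:76951152-76951301 on the plus strand for *Paics* and chrX:52987928-52988077 on the plus strand for *Hprt*. Capitals mark a CCAAT box, the core of the NRF1 motif or a GC box with the letters GGGCGG, found on either strand.
Gart: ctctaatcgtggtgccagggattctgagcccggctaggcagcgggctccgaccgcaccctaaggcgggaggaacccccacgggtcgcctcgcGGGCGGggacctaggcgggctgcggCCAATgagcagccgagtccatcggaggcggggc
Ppat: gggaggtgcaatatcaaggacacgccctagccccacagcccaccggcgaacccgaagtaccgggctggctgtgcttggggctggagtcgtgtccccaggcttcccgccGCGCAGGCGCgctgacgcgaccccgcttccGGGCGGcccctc
Paics: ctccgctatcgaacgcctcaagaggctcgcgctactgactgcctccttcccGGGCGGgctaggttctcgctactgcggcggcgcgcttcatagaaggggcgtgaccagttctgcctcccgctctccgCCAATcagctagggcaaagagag
Hprt: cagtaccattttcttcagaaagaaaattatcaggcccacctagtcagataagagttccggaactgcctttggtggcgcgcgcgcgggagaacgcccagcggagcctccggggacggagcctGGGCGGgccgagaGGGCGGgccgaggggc

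RefSeq windows from 250 bases before to 50 after the start were given for 9 of the 10 genes (*Adk* has 2 starts), and these were searched on both strands for 5 motifs. All 9 held a GC box, against 35.7% of 32851 windows of all genes. A CCAAT box was in 5 of the 9 (*Gart*, *Paics*, *Atic*, *Adk* and *Impdh2*, there 7 bases after the start), against 37.4% of all windows. The E-box CACGTG was in 3 (*Paics*, *Atic*, *Impdh2*), against 7.2%, and the NRF1 core in 2 (*Ppat*, *Adk*), against 4.6%. The letters TATAAA of a TATA box were in *Impdh2* alone of the 9, against 13.6%. They lay 2 bases after its start, not before it. The windows of the 9 genes held between 57.7% and 75.0% G and C, with a median of 52.7% over all windows. The windows of *Gart* and *Hprt*, the genes whose levels are compared most closely below, share the GC box and differ in the CCAAT box, which *Hprt* lacks in this window.

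*Gart* rose in Dp1Tyb hippocampus close to the ratio of gene copies, while none of the other 9 enzymes passed the test. In edgeR's quasi-likelihood test over all 17237 tested genes, 1 of the 10 was called higher in Dp1Tyb at an adjusted p under 0.05 and 0 were called lower. Over all tested genes 0.87% were called higher and 0.238% lower. At an unadjusted p under 0.05 there were 2 of the 10 (*Gart* and *Hprt*), against 14.4% of all tested genes. Only *Gart* had CPM values that did not overlap between the genotypes, against 3.68% of all tested genes. The 9 enzymes outside the duplication had log2 fold changes between −0.14 and 0.17, 5 above and 4 below 0. In tissue of mixed cell types a difference in the number of cells and a difference in RNA per cell cannot be told apart.

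**Figure D1:**
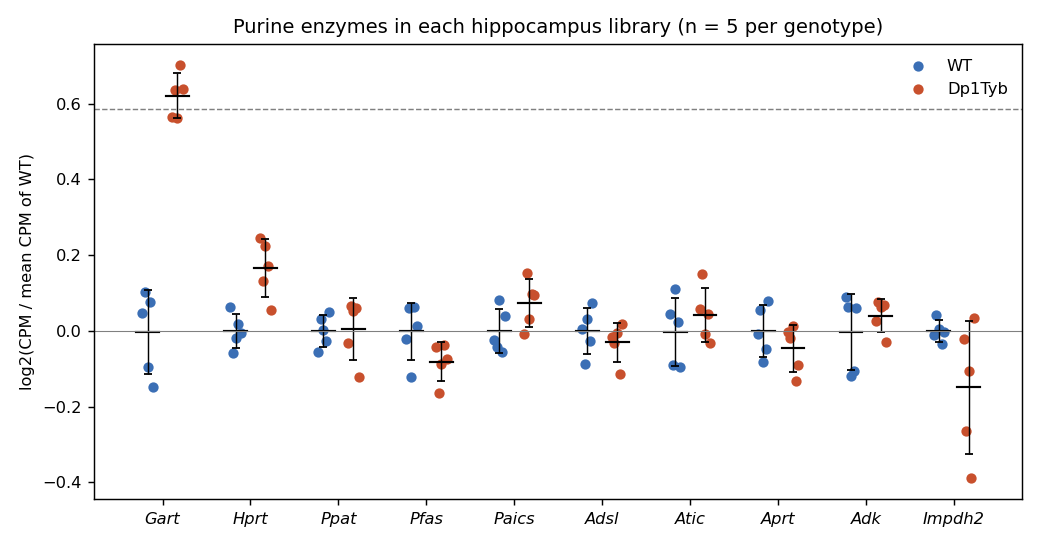
Level of each of the 10 enzymes in each library, as log2 of CPM over the WT mean of that gene (y axis). Points are libraries, bars are the mean and SD of 5 libraries per genotype, and the dashed line is 0.585, the log2 of 1.5. The 5 Dp1Tyb libraries stand above all WT libraries for *Gart* only.

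*Gart* (ENSMUSG00000022962, chromosome 16, 91621186 to 91646952, minus strand) was read in WT replicates 1 to 5 at 28.9, 30.0, 26.2, 29.5 and 25.2 CPM. The Dp1Tyb replicates 1 to 5 were at 41.4, 43.5, 41.3, 45.5 and 43.5 CPM. The lowest Dp1Tyb library was thus well above the highest WT library. WT mice averaged 27.97 ± 2.13 CPM, and Dp1Tyb mice 43.04 ± 1.77 CPM (± SD, n = 5 per genotype). The log2 fold change was 0.62 ± 0.06 (SE), a fold of 1.54 with a 95% interval of 1.41 to 1.67 that contains the copy ratio of 1.5 (edgeR adjusted p = 2.72e-05). An annotated antisense transcript, *Gm15964*, covers 1014 of the 5144 exon bases of *Gart*. It had between 8 and 31 counts in every library, 0.69 CPM in WT and 0.79 CPM in Dp1Tyb on average, far below *Gart* itself. How reads in the shared bases were assigned depends on the strand setting of the counting, which is not given, so these counts do not show how many *Gart* lost.

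The neighbours of *Gart* on chromosome 16 rose with it. The segment held 250 genes of the table, of which 114 were tested, 68 (59.6%) were called higher in Dp1Tyb and 0 lower. The median log2 fold change over the 114 was 0.53, with quartiles of 0.34 and 0.64, and *Gart* ranked 33rd of them. All 4 tested protein-coding genes on each side of *Gart* were called higher. None of them had CPM values that overlapped between the genotypes, as in 3.68% of all tested genes taking either direction. On one side these were *Ifnar1* and *Ifngr2*, subunits of the type I and type II interferon receptors, then *Tmem50b* and *Dnajc28*. On the other they were *Son*, a splicing cofactor of nuclear speckles, *Donson*, a replication fork protein, *Cryzl1* and *Itsn1*, an endocytic scaffold. Their log2 fold changes ran from 0.48 ± 0.04 for *Itsn1* (adjusted p = 2.42e-05, edgeR) to 0.79 ± 0.06 for *Son* (adjusted p = 3.22e-06, edgeR). *Son*, whose start faces that of *Gart*, went from 558.2 to 967.7 CPM, a fold of 1.73, so the pair of back-to-back genes was higher on both strands. Whether the folds of *Son* and *Gart* differ from each other was not tested.

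**Figure D2:**
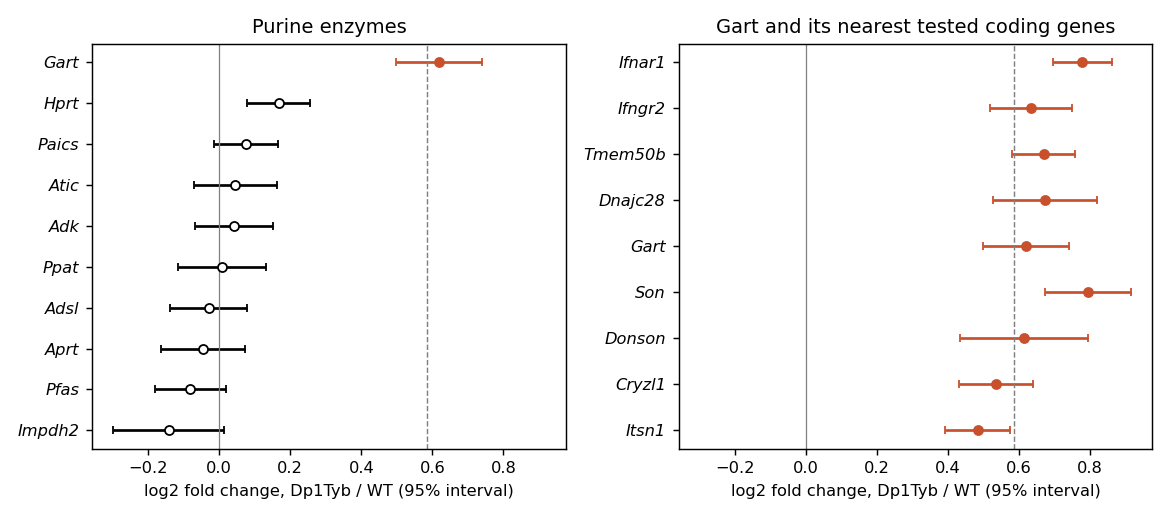
Log2 fold change of Dp1Tyb over WT (x axis) with its 95% interval for the 10 enzymes (left) and for *Gart* with the 4 nearest tested protein-coding genes on each side, in chromosome order (right). Filled points passed the test, open points did not, and the dashed line is 0.585. On the left only *Gart* is filled, at 0.62, while all 9 genes on the right are filled, from 0.48 to 0.79.

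Ahead of *Gart* in the pathway, *Ppat*, the amidotransferase of the committed step (ENSMUSG00000029246, chromosome 5, 76913249 to 76951578, minus strand), was the least different of the 10. Its WT replicates were at 16.0, 17.02, 16.7, 16.3 and 17.3 CPM and its Dp1Tyb replicates at 16.3, 17.4, 17.3, 17.4 and 15.3 CPM. Dp1Tyb replicates 2, 3 and 4 lay just above the highest WT library, replicate 5 lay below the lowest and replicate 1 lay between, so the Dp1Tyb values spread to both sides of the WT range. The log2 fold change was 0.01 ± 0.06, with a 95% interval of −0.12 to 0.13 (edgeR adjusted p = 0.965). The interval lies below the log2 fold change of *Gart*. The CV of *Ppat* was 2.94% in WT and 5.48% in Dp1Tyb, where counting error alone would give 4.94% and 4.57%.

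The enzymes that act with and after *Gart* on the way to IMP had values on both sides of 0, and each had groups that overlapped. *Pfas*, the formylglycinamide ribonucleotide amidotransferase (ENSMUSG00000020899, chromosome 11, 68985697 to 69008460, minus strand), was read in WT at 44.4, 46.9, 41.4, 47.0 and 45.4 CPM. In Dp1Tyb it was at 43.7, 40.1, 42.4, 43.8 and 42.8 CPM. Most WT libraries were a little higher, and the log2 fold change was −0.08 ± 0.05 with a 95% interval of −0.18 to 0.02 (edgeR adjusted p = 0.441). *Paics*, which joins a carboxylase and a synthetase in 1 protein (ENSMUSG00000029247, chromosome 5, 76951307 to 76967509, plus strand), was at 83.9, 82.8, 90.2, 82.0 and 87.6 CPM in WT. In Dp1Tyb it was at 84.7, 94.8, 87.2, 91.2 and 91.0 CPM. Here the Dp1Tyb libraries tended to the upper part of the range, with a log2 fold change of 0.07 ± 0.04 and a 95% interval of −0.02 to 0.16 (edgeR adjusted p = 0.435). *Ppat* and *Paics* share 272 bases of exon on opposite strands, and how reads there were assigned depends on the strand setting of the counting, which is not given in the sources used here.

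*Adsl*, adenylosuccinate lyase, which acts both here and in the making of AMP (ENSMUSG00000022407, chromosome 15, 80948490 to 80970946, plus strand), was at 23.3, 21.8, 23.7, 22.8 and 24.4 CPM in WT. Its Dp1Tyb values were 22.9, 22.7, 23.1, 21.4 and 23.5 CPM, inside nearly the same range, with a log2 fold change of −0.03 ± 0.05 (95% interval −0.14 to 0.08, edgeR adjusted p = 0.821). *Atic*, the bifunctional enzyme that closes the ring to IMP (ENSMUSG00000026192, chromosome 1, 71557150 to 71579631, plus strand), was at 32.4, 29.5, 33.9, 31.9 and 29.4 CPM in WT. In Dp1Tyb it was at 32.7, 34.9, 31.2, 32.4 and 30.7 CPM, again overlapping, with a log2 fold change of 0.04 ± 0.05 (95% interval −0.07 to 0.16, edgeR adjusted p = 0.737). The intervals of all 5 de novo enzymes other than *Gart* ended below 0.17, under the lower end of the interval of *Gart* at 0.50.

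*Gart* therefore made up a larger part of the de novo transcripts in Dp1Tyb. For this, CPM values were divided by the length in kilobases of the merged exons of all annotated transcripts (RPKM). The size of the shares and ratios below therefore depends on the annotation. Of the summed RPKM of the 6 de novo enzymes, *Gart* held 11.3%, 11.79%, 9.93%, 11.57% and 9.72% in WT replicates 1 to 5, and 15.34%, 15.09%, 15.13%, 16.03% and 15.57% in Dp1Tyb. The groups did not overlap, and the means were 10.86 ± 0.97% and 15.43 ± 0.39% (SD, n = 5 each). Per exon length, the ratio of *Gart* to *Ppat* was 1.44 ± 0.13 in WT and 2.21 ± 0.14 in Dp1Tyb, and the ratio to *Pfas* was 0.96 ± 0.06 and 1.56 ± 0.08. None of the 9 ratios of *Gart* to another of these enzymes overlapped between the genotypes. These ratios carry the same reads of *Gart* as its fold change and are not further evidence of it.

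*Hprt*, the salvage enzyme for hypoxanthine and guanine (ENSMUSG00000025630, chromosome X, 52988137 to 53021659, plus strand), had the next largest difference among the 10 by p-value, and did not pass the test. It was read in WT at 109.4, 100.6, 103.5, 106.1 and 104.4 CPM and in Dp1Tyb at 124.1, 114.8, 122.5, 118.0 and 108.8 CPM. Dp1Tyb replicates 1 to 4 lay above every WT library, and replicate 5 lay just below the highest of them. The means were 104.8 ± 3.25 and 117.6 ± 6.17 CPM (SD, n = 5 each), a log2 fold change of 0.17 ± 0.04 and a fold of 1.12 with a 95% interval of 1.06 to 1.19 (edgeR adjusted p = 0.0757). The interval ends below the copy ratio of 1.5. The call depended on the setting. With DESeq2 the adjusted p was 0.0215, and without Dp1Tyb replicate 5 it was 0.0328 at a log2 fold change of 0.19. Without Dp1Tyb replicates 1 and 4, the libraries nearly free of choroid plexus transcripts, it was 0.302 at 0.14, an alternative chosen after seeing the data.

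*Hprt* is also a gene whose parts are commonly built into the vectors used to engineer chromosome duplications, together with coat colour genes, and such vector parts could add reads of *Hprt* sequence. The coat colour gene *a* (agouti) had 0, 2, 0, 0 and 0 counts in the WT libraries and 254, 176, 154, 130 and 103 counts in the Dp1Tyb libraries. It was thus nearly silent in WT and present in every Dp1Tyb library (edgeR adjusted p = 2.36e-07). *Tyr* (tyrosinase), the other coat colour gene used in this way, ran from 1.30 to 2.10 CPM in WT and from 1.28 to 2.21 CPM in Dp1Tyb, with a log2 fold change of 0.09 ± 0.17 (edgeR adjusted p = 0.851). The mean of *Hprt* was 12.85 CPM higher in Dp1Tyb than in WT, beside a mean of 5.36 CPM for *a* in Dp1Tyb. The table holds 1 count per gene and library, so reads of a vector and of the gene on the X chromosome cannot be told apart, and the part of vector reads in the level of *Hprt* was not tested.

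The other salvage enzymes had narrow intervals around 0. *Aprt*, which recycles adenine (ENSMUSG00000006589, chromosome 8, 122574635 to 122576909, minus strand), was at 21.1, 22.01, 20.01, 20.5 and 22.4 CPM in WT and at 21.2, 20.9, 21.4, 19.3 and 19.9 CPM in Dp1Tyb. The ranges overlapped, with a log2 fold change of −0.05 ± 0.05 and a 95% interval of −0.16 to 0.07 (edgeR adjusted p = 0.735). *Adk* (ENSMUSG00000039197, chromosome 14, 21052574 to 21448569, plus strand), the adenosine kinase, which in the adult brain is found mainly in astrocytes, was at 47.5, 46.6, 41.1, 41.5 and 46.5 CPM in WT. In Dp1Tyb it was at 45.5, 47.1, 46.6, 46.8 and 43.7 CPM, within the WT range, and the log2 fold change was 0.04 ± 0.05 (95% interval −0.07 to 0.15, edgeR adjusted p = 0.744). The 5 astrocyte markers summed to between 3728 and 4457 CPM in WT and between 4013 and 4343 CPM in Dp1Tyb. Their log2 fold changes had a median of 0.11, with 4 above 0 and 1 below. At an unadjusted edgeR p under 0.05, 3 of the 5 were higher and 0 lower, against 14.4% of all tested genes in either direction. After adjustment 1 of the 5, *Gfap*, named after its values were seen, was called higher, against 0.87% of all tested genes.

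*Impdh2*, the rate-limiting step from IMP to guanine nucleotides (ENSMUSG00000062867, chromosome 9, 108560286 to 108565584, plus strand), had the widest spread of the 10 between Dp1Tyb libraries. It was read in WT at 31.3, 32.5, 31.7, 30.8 and 31.5 CPM and in Dp1Tyb at 31.1, 26.2, 29.3, 24.1 and 32.3 CPM. Dp1Tyb replicates 2, 3 and 4 lay below every WT library, and replicates 1 and 5 lay within the WT range. The CV was 1.97% in WT, the smallest of the 10, and 11.9% in Dp1Tyb, the largest, while the log2 fold change was −0.14 ± 0.07 with a 95% interval of −0.30 to 0.01 (edgeR adjusted p = 0.39). Counting error alone would give 3.59% in WT and 3.50% in Dp1Tyb, so the WT value is below what counting allows for on average, and the difference in spread between the genotypes was not tested. *Impdh2* shares 48 exon bases with *Ndufaf3* on the opposite strand. It also has a processed copy, *Impdh2-ps*, with 68 to 135 counts in WT and 83 to 179 in Dp1Tyb libraries, and reads aligning to both places were discarded, so that the split between the 2 is uncertain.

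**Figure D3:**
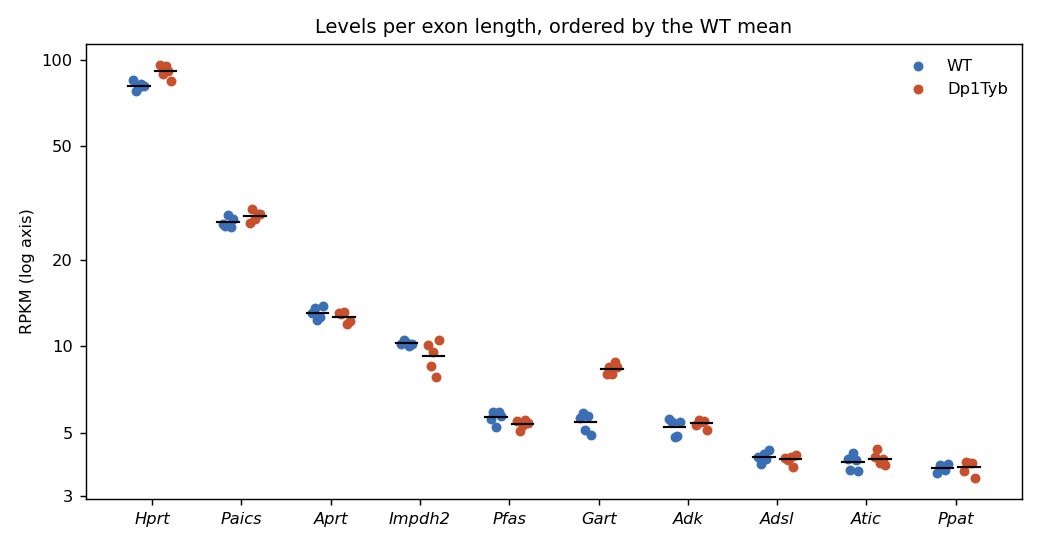
Level of the 10 enzymes per exon length, in RPKM on a log axis, ordered by the WT mean. Points are libraries and bars are means of 5 libraries per genotype. *Hprt* is highest and *Ppat* lowest in both genotypes, and *Gart* moves from beside *Pfas* and *Adk* in WT to a place above both in Dp1Tyb.

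Per exon length, the order of the 10 levels was led by *Hprt*. The merged exons ran from 1289 bases for *Hprt* to 8526 for *Adk*, so the order between genes depends on the annotation. In WT, *Hprt* had 81.3 RPKM, with *Paics* at 27.18, *Aprt* at 13.12 and *Impdh2* at 10.25 RPKM next in order, and these 4 did not overlap with each other across the WT libraries. *Pfas* (5.67 RPKM), *Gart* (5.44 RPKM) and *Adk* (5.24 RPKM) had ranges that overlapped, as did *Adsl* (4.12 RPKM), *Atic* (3.94 RPKM) and *Ppat* (3.77 RPKM). In Dp1Tyb, *Gart* was at 8.37 RPKM, with libraries from 8.03 to 8.85, above the highest *Pfas* library at 5.53 and the highest *Adk* library at 5.53 RPKM, and it overlapped with *Impdh2*, whose libraries ran from 7.83 to 10.5 RPKM. In single libraries *Gart* held rank 5 to 7 in WT and rank 4 or 5 in Dp1Tyb. By this measure the first enzyme of the pathway, *Ppat*, was the lowest of the 10 in both genotypes. *Paics*, whose start it faces, was the highest of the de novo enzymes.

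Around these enzymes, 7 lists of genes were read from the same fit: PRPP supply, the steps from IMP to AMP and GMP, other salvage, purine breakdown, nucleotide kinases, folate one-carbon supply, and adenosine signalling and transport. They name 83 genes, of which 81 were in the table and 74 were tested. None of the 74 was called higher or lower in edgeR, where 0.87% of all tested genes were called higher and 0.238% lower. At these shares, few or no calls would be found in any 74 tested genes, so their absence does not set these lists apart. At an unadjusted p under 0.05 there were 8 higher and 5 lower, 13 of 74, against 14.4% of all tested genes, and the smallest adjusted p was 0.0906. The log2 fold changes were above 0 for 40 and below 0 for 34, with a median of 0.02 over the 74 and of 0.00 over all tested genes.

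**Figure D4:**
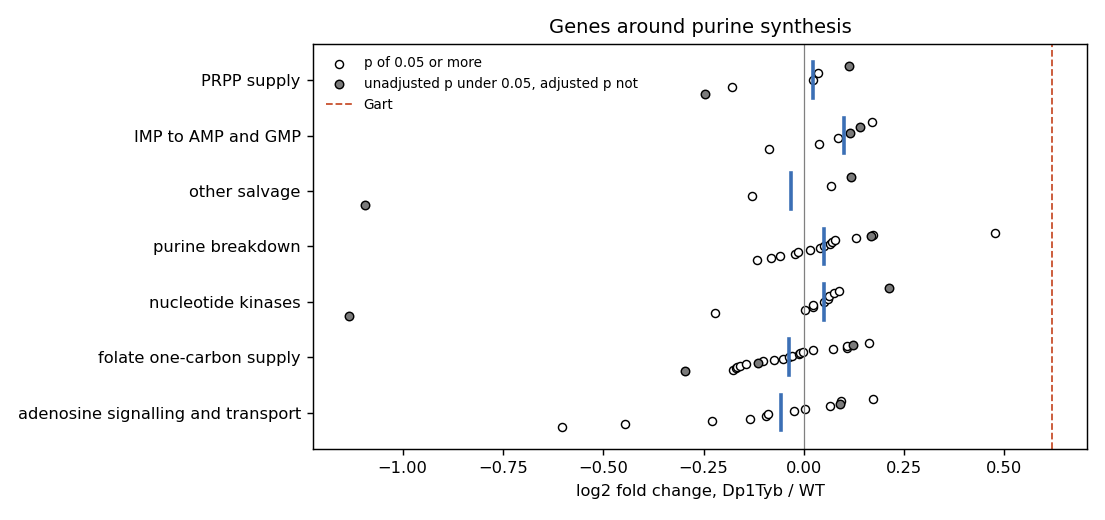
Log2 fold change of Dp1Tyb over WT (x axis) of the 74 tested genes in the 7 lists. Each point is a gene, filled where the unadjusted p was under 0.05, blue bars are list medians, and the dashed line marks *Gart* at 0.62. None of the points reaches the *Gart* line, and none passed the test after adjustment.

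PRPP, the shared substrate of *Ppat*, *Hprt* and *Aprt*, is made by the synthetases of *Prps1* and *Prps2*, both on the X chromosome like *Hprt*. Of 5 tested genes of PRPP supply 0 were called, 3 were above 0 and 2 below. *Prps1*, the highest of the list per exon length, had a mean of 62.91 CPM in WT and 67.93 CPM in Dp1Tyb, a log2 fold change of 0.11 ± 0.04 (edgeR adjusted p = 0.224). *Prps2* had the opposite sign, at 38.52 and 32.48 CPM, with a log2 fold change of −0.25 ± 0.10 (edgeR adjusted p = 0.28). Its lowest libraries were Dp1Tyb replicates 1, 2 and 4 at 28.7, 29.4 and 29.8 CPM, 2 of which are those nearly free of choroid plexus transcripts. With the choroid plexus level as a covariate the log2 fold change of *Prps2* was −0.11 ± 0.07 and that of *Prps1* 0.11 ± 0.05.

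From IMP onwards, 0 of 6 tested genes were called, with 5 above 0 and 1 below and a list median of 0.10. *Gmps*, which makes GMP from the product of IMPDH, was at 70.1, 65.2, 64.0, 64.8 and 66.7 CPM in WT and at 73.8, 72.5, 72.2, 74.8 and 71.1 CPM in Dp1Tyb. All 5 Dp1Tyb libraries lay above all WT libraries, as in 3.68% of all tested genes taking either direction. The log2 fold change was 0.14 ± 0.04, a fold of 1.10 (edgeR adjusted p = 0.0955). *Gmpr*, which turns GMP back into IMP and was highest in the list per exon length, had means of 49.35 and 53.49 CPM (log2 fold change 0.12, edgeR adjusted p = 0.265). So the enzymes on either side of GMP had values above 0, while *Impdh2* ahead of them had a value below 0, and none passed the test.

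Among other salvage genes 0 of 4 tested were called. *Dck*, deoxycytidine kinase, which also accepts purine deoxynucleosides, had means of 20.83 and 22.62 CPM (log2 fold change 0.12, edgeR adjusted p = 0.34). *Pnp2* had 8 to 44 counts per library, and means of 0.88 CPM in WT and 0.44 CPM in Dp1Tyb (log2 fold change −1.09 ± 0.34, edgeR adjusted p = 0.164). It is a close copy of *Pnp*, which was not analysed here, and reads aligning to more than 1 place were discarded, so its level is uncertain. How many reads were lost in this way was not tested. Of the 15 tested genes of purine breakdown 0 were called, with 10 above 0. *Gda*, the guanine deaminase, highest in that list, had means of 237.9 and 266.9 CPM (log2 fold change 0.17 ± 0.07, edgeR adjusted p = 0.289), with Dp1Tyb replicate 4 far above the rest at 317.9 CPM.

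Of the 11 tested nucleotide kinases 0 were called, with 9 above 0. *Nme2*, a nucleoside diphosphate kinase, had the smallest adjusted p of the 74, with 10 to 29 counts in WT and 5 to 16 in Dp1Tyb libraries (log2 fold change −1.13 ± 0.29, edgeR adjusted p = 0.0906). *Nme2* shares much sequence with *Nme1*, so its level is uncertain too, and the part of discarded reads in its low counts was not tested. The mitochondrial adenylate kinase *Ak4* had means of 65.99 and 76.44 CPM (log2 fold change 0.21 ± 0.07, edgeR adjusted p = 0.225). *Ak5*, the brain adenylate kinase and highest in the list, was at 257.4 and 268.3 CPM (log2 fold change 0.06, edgeR adjusted p = 0.499).

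GART and ATIC take their one-carbon units from 10-formyl-tetrahydrofolate. Of the 21 tested genes of folate one-carbon supply 0 were called, with 6 above 0 and 15 below and a median of −0.04. *Mthfd1*, which makes that cofactor in the cytosol, had means of 48.03 and 44.35 CPM (log2 fold change −0.11, edgeR adjusted p = 0.315). *Mthfd2l*, a mitochondrial enzyme, had means of 4.84 and 3.96 CPM (log2 fold change −0.30, edgeR adjusted p = 0.278). *Dld*, a subunit of the glycine cleavage system and of other dehydrogenases, was highest in the list at 118.9 and 129.5 CPM (log2 fold change 0.12 ± 0.04, edgeR adjusted p = 0.175). The 12 tested genes of adenosine signalling and transport, 5 above and 7 below 0, held no call either, and *Adora1*, the A1 receptor of hippocampal neurons, had means of 227.2 and 242.0 CPM (log2 fold change 0.09, edgeR adjusted p = 0.332).

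Genes with the most similar pattern over the 10 libraries were found from log2 CPM. For *Gart* these were *Dscam* (Pearson r 0.984, Spearman rho 0.927), *Ttc3* (0.983 and 0.915) and *Hspa13* (0.980 and 0.879), and all 3 lie in the duplicated segment, with log2 fold changes of 0.63, 0.66 and 0.68. For *Hprt* they were *Eogt* (0.939 and 0.939), *Tsnax* (0.939 and 0.927) and *Arf4* (0.933 and 0.952), and none of them lies in the segment. *Eogt* on chromosome 6 was itself called higher in Dp1Tyb (log2 fold change 0.32, edgeR adjusted p = 0.028). These coefficients describe 10 libraries that fall into 2 genotypes, so a shared genotype difference is part of each, and no test was made of them.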

How the data were processed

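Poly(A) RNA of 10 hippocampi was sequenced in strand-specific paired-end libraries. Per the study's methods and the submitters' processing notes, the authors trimmed reads with Trim Galore, aligned them to GRCm38 with TopHat2 2.0.12, discarded reads with several alignments, and counted reads per gene with HTSeq. The strand setting and annotation release are not given in the sources used here. The deposited raw counts per gene were used, with no normalization. Deposited tables of normalised signal and of the authors' DESeq2 1.6.3 comparison (fold changes and p-values) were not used.

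Gene IDs were matched to GENCODE M21 (GRCm38): 42548 of 43629 matched, and the other 1081 held 0.103% of counts. Counts were filtered (filterByExpr), scaled by TMM and tested with edgeR 4.0.16 (quasi-likelihood F-test, R 4.3.3), WT against Dp1Tyb, with Benjamini-Hochberg adjustment over 17237 genes and a threshold of 0.05. The test was checked on simulated data. CPM values are TMM-scaled, and RPKM values are CPM per kilobase of merged exons. Intervals are 95% intervals of the fit. Libraries were 1 per mouse, and each of the 45 pairs of libraries differed beyond sampling noise (chi-square over its degrees of freedom at least 4.89). The labels give no batch or date. Depth, 18227684 to 43692270 counts, limits the lowest genes most.

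Alternatives were DESeq2 1.42.0, other scalings, no filter, a replicate block, the choroid plexus level as a covariate, and leaving out libraries. Named genes were the 10 enzymes, the 4 tested protein-coding genes on each side of *Gart*, the 3 genes most like *Gart* and *Hprt*, the coat colour genes, and in the 7 lists each gene with an unadjusted p under 0.05 and the highest per exon length. The genes and lists were chosen with earlier results of these data known. Promoter sequences and starts are from RefSeq, GRCm38.p6. Protein sequences were not used here.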

Additional observations from a re-analysis of the deposited data

Results flagged for a closer look

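In the libraries of each genotype, 80 groups of 5 values of the named genes were examined for a library far from the others by Dixon's test, of which chance would pick out about 4, and 3 were picked out. *Gda* (guanine deaminase) was at 317.9 CPM in Dp1Tyb replicate 4 and between 239.8 and 259.7 CPM in the other Dp1Tyb libraries, a gap of 0.716 of the range. *Dld* was at 118.6 CPM in Dp1Tyb replicate 5 and between 131.7 and 132.9 CPM in the others, a gap of 0.917 of the range. *a* (agouti) had 2 counts in WT replicate 2, which is 0.083 CPM, and 0 counts in the other WT libraries, a gap of 1.0 of the range that rests on those 2 counts. None of the 10 purine enzymes had such a library.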

How the results depend on the processing

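*Gart* was called higher in Dp1Tyb under all 18 alternatives run, with log2 fold changes of 0.58 to 0.64. The number of tested genes called, 191, became 507 with DESeq2, 315 with a replicate block and 120 without Dp1Tyb replicates 1 and 4 (chosen after seeing the data). It ran from 105 to 218 with 1 library left out, and was 105 when WT replicate 4 or Dp1Tyb replicate 2 was dropped, 111 when Dp1Tyb replicate 3 was and 127 when WT replicate 5 was. The number of the 10 enzymes called higher was 1, and was 2 (*Gart* and *Hprt*) with DESeq2 and with a replicate block, and 1 to 2 with 1 library left out. *Hprt* had a log2 fold change of 0.1647 (adjusted p = 0.0215) with DESeq2, of 0.166 (adjusted p = 0.0466) with the replicate block, and 0.1468 to 0.1933 with 1 library left out. Its adjusted p was 0.0328 without Dp1Tyb replicate 5, 0.215 with the choroid plexus level as a covariate, and 0.0215 to 0.302 over all 18. In the 7 lists, 1 gene was called higher with DESeq2 (*Gmps*) and 1 with the replicate block (*Ak4*), 0 to 0 with 1 library left out. Called lower were 1 with the replicate block (*Prps2*), and 0 to 1 with 1 library left out, *Nme2* without Dp1Tyb replicate 5. *Ppat*, at 0.01, changed sign with the choroid plexus covariate (−0.0009) and with single libraries left out (−0.0087 to 0.0364), and *Adsl* with the covariate (0.005). The cause of these changes was not tested. Replicate numbers were shared between the groups, and the labels do not say whether they pair the libraries. Correlations of same-numbered deviations were 0.308, 0.007, 0.29, −0.054 and 0.385, and in 2 of 5 was a library closest to its own number. These values do not settle whether the numbers pair the libraries. The replicate block changed no other call among the 10. Depth limits the genes with the fewest counts, such as *Nme2* and *Pnp2*.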
